A study of Mus musculus with 8 samples.

Results

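The mitochondrial ribosomal protein genes were followed in the hearts of WT mice and of TAZG197V mice, a knock-in model of Barth syndrome. Members were all genes whose mouse symbol is Mrpl or Mrps followed by a number, with pseudogene names (-ps) left out. The rule gave 78 genes of the 55471 gene rows counted, 49 of them Mrpl and 29 Mrps, and 77 were expressed well enough to be tested. Mrpl53 was the exception, with 0 to 3 counts per library, and 88.0% of its annotated exon bases lie inside other genes.

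Mitochondria translate the few proteins that their own genome encodes on a separate ribosome. Its RNAs are transcribed from mitochondrial DNA, whereas all of its proteins are encoded in the nucleus, made in the cytosol and imported. The large subunit holds the peptidyl transferase centre and an exit tunnel facing the inner membrane, and the small subunit binds and decodes the mRNA. In heart muscle the products are core subunits of the respiratory chain and the ATP synthase, which sit in the cardiolipin-rich inner membrane. Tafazzin, the enzyme encoded by the X-linked gene Taz, remodels cardiolipin, and its loss causes Barth syndrome.

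Each genotype had 4 libraries, made from total RNA of a small piece of heart of untreated mice aged 14 weeks. TAZG197V mice were hemizygous males carrying a point mutation in Taz, made with Cas9 in C57BL/6N zygotes and crossed for 2 generations to C57BL6/J, and WT mice carried the unedited allele. The labels' protocol speaks of homozygous offspring, and the mutation is present in every cell rather than in heart muscle alone. The labels number the libraries without saying whether each came from a different mouse, so p-values here measure the spread between these samples. Library totals ran from 23055689 to 36301031 counts. Taz itself read 63.8, 58.7, 61.9 and 59.3 CPM (counts per 1e6 counts, scaled by TMM, the trimmed mean of M-values) in WT libraries 1 to 4 and 48.03, 50.4, 46.3 and 44.3 CPM in TAZG197V libraries 1 to 4, a log2 fold change of -0.37 ± 0.056 (SE, n = 4 per genotype; edgeR adjusted p = 0.000879), with no overlap between genotypes.

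Some libraries stood apart in marker genes of other cells or tissues. Haemoglobin genes took 5.00% of the counts of WT library 4 against 0.0213% to 0.0960% elsewhere. The 5 brain markers summed to 104.9 CPM in WT library 4 and 267.9 CPM in TAZG197V library 4, against 8.91 to 12.0 CPM in the other 6, and the 4 atrial markers summed to 918.7 CPM in WT library 2 against 2.74 to 75.1 CPM in the others. Of the tested markers, 0 of 6 red cell, 0 of 2 atrial and 1 of 4 brain markers were called, the last being Slc1a2, which was higher in TAZG197V by 0.68 on the log2 scale (edgeR adjusted p = 0.00394). No marker of these lists had 0 counts in all libraries. Cardiomyocyte markers were abundant throughout: the 5 of them summed to 39930 to 44630 CPM in WT, but to 31350 to 36120 CPM in TAZG197V, and 4 of the 5 were called lower. The 4 fibroblast markers summed to 950.4 to 1500 CPM in WT and 643.5 to 938.2 CPM in TAZG197V, also without overlap, with Dcn and Pdgfra called lower. The 4 endothelial markers summed to 566.1 to 813.3 CPM in WT and 452.9 to 596.9 CPM in TAZG197V, with Cdh5 called lower, and the 4 macrophage markers, at 114.4 to 131.3 and 107.1 to 163.5 CPM, had 0 called. The 4 adipocyte markers summed to 39.3 CPM in WT library 2 against 0.323 to 5.76 CPM in the others, with Cfd and Car3 called lower in TAZG197V, although TAZG197V was lower than WT in the lane of libraries 1 and 2 (mean log2 differences of -4.19 and -4.50) and higher in that of libraries 3 and 4 (0.89 and 0.68). The part of these markers in the members' values was not tested. In bulk samples fewer cells of a type and less RNA per cell cannot be told apart.

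Of the 77 members tested, 29 were called higher and 8 lower in TAZG197V, and 40 were not called. A gene was called at an edgeR adjusted p under 0.05 with the higher genotype over 15% above the lower and a mean scaled count of at least 50, a count that all 77 reached. Across all 15084 genes tested, 33.2% were called, 18.4% higher and 14.8% lower. Among the 12357 of them that also reached a mean count of 50, the shares were 40.6%, 22.5% higher and 18.1% lower, against 48.1% of the members, 37.7% higher and 10.4% lower. The split over all genes depended on scaling: 2782 genes called higher and 2232 genes called lower under TMM became 2317 and 2655 under upper quartile scaling and 3514 and 1587 under library totals alone. The share of members called was thus near the background, while the share called higher lay above it and the share called lower below it. Their median log2 fold change was 0.13, with 52 members above 0 and 25 below, beside a median of -0.01 over all genes tested.

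The differences were mostly small relative to the spread between libraries. In 19 members (24.7%), 16 higher and 3 lower, the 4 TAZG197V libraries lay wholly on one side of the 4 WT libraries, a smaller share than the 33.2% of all genes tested and the 36.7% of those with a mean count of 50. Without the surrogate variables (estimated unwanted variation in the fit), 24 members were called, 19 higher and 5 lower, beside 33.9% of genes with a mean count of 50 called in either direction and 19.5% called higher. Without both libraries numbered 4, 29 members were called higher and 7 lower beside 42.4% of all such genes in either direction, and 32 of the 37 calls were shared with the full set. All 37 called members differed in the same direction in both sequencing lanes, which hold libraries 1 and 2, and 3 and 4. So did 4981 of the 5014 genes called among all genes tested. The median log2 difference of Mrpl genes was 0.19 in the first of these lanes and 0.02 in the second, and that of Mrps genes 0.23 and 0.13.

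**Figure D1:**
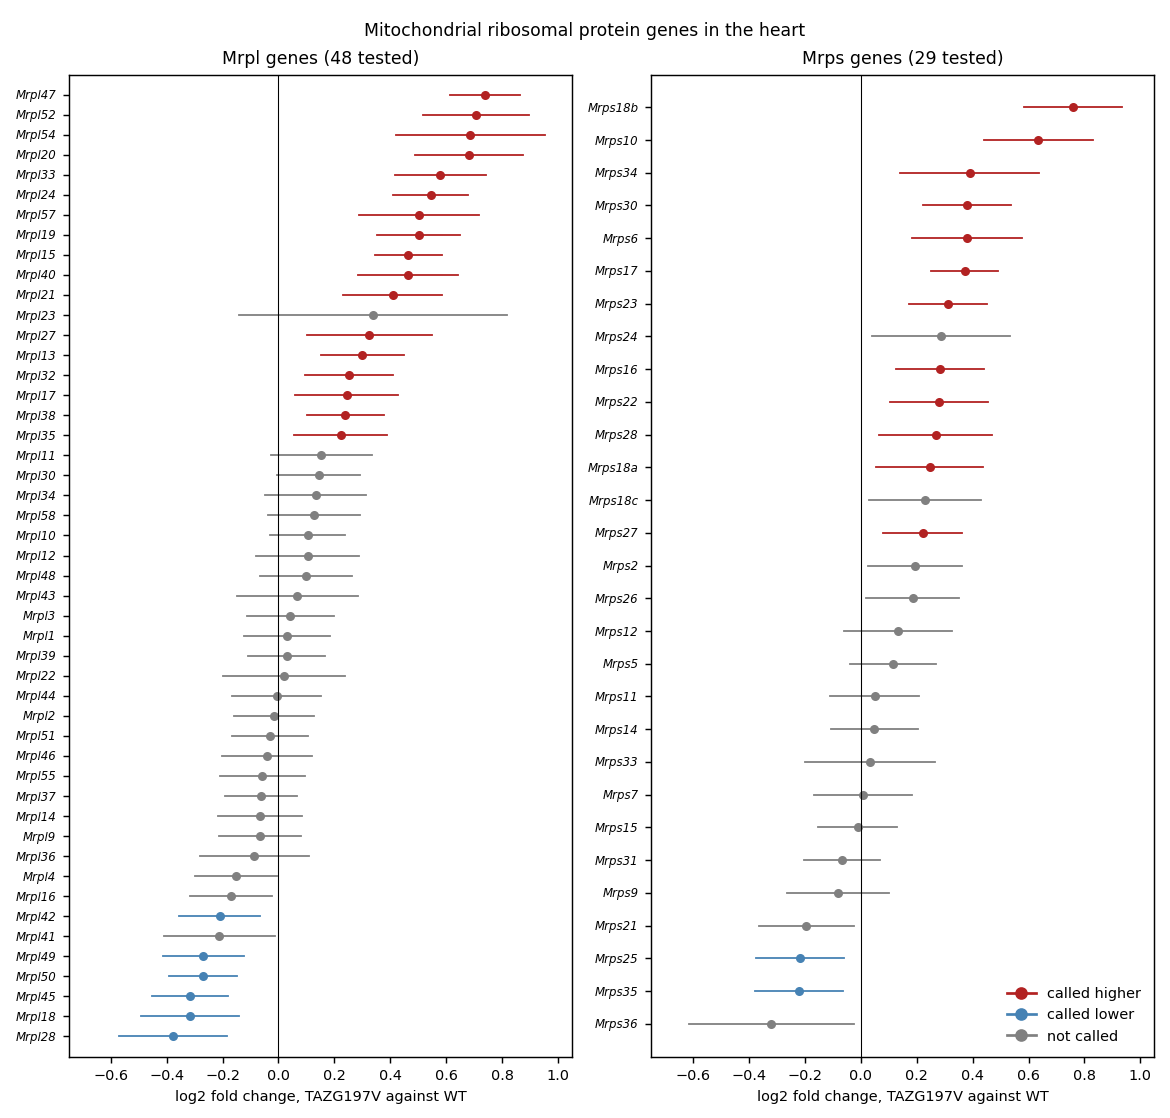
Log2 fold change of each tested member, TAZG197V against WT (n = 4 libraries per genotype), with its 95% confidence interval, for Mrpl genes (left) and Mrps genes (right), coloured by call. Called members reach from -0.38 (Mrpl28) to 0.76 (Mrps18b), and 17 Mrpl and 12 Mrps genes lie on the higher side.

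In the large subunit, 17 of 48 tested Mrpl genes were called higher and 6 lower (12 and 9 under upper quartile scaling, 19 and 4 under library totals), with a median log2 fold change of 0.10 and a range of -0.38 to 0.74. The shares called higher and lower were 35.4% and 12.5%, beside 22.5% and 18.1% of all genes with a mean count of 50. The genotypes did not overlap in 14 of the 48 (29.2%), 11 higher and 3 lower, beside 36.7% of all genes with a mean count of 50. Mrpl47 (chr3:32725397-32737605, minus strand, GRCm38), the counterpart of bacterial L29 beside the exit tunnel, had the largest rise among Mrpl genes. It read 23.4, 21.7, 25.4 and 21.7 CPM in WT libraries 1 to 4 and 39.2, 42.2, 42.02 and 32.7 CPM in TAZG197V libraries 1 to 4, so every TAZG197V library was above every WT library, and its log2 fold change was 0.74 ± 0.056 (SE; edgeR adjusted p = 2.16e-05). Mrpl24, another protein of the tunnel exit, read 34.00, 33.3, 36.8 and 28.8 CPM in WT libraries 1 to 4 and 50.6, 52.8, 48.7 and 41.4 CPM in TAZG197V libraries 1 to 4. It rose by 0.54 ± 0.060 on the log2 scale (edgeR adjusted p = 0.000164), also without overlap.

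Mrpl52, a mitochondria-specific protein, read 25.9, 21.7, 23.5 and 18.9 CPM in WT libraries 1 to 4 and 36.3, 44.02, 37.3 and 29.7 CPM in TAZG197V libraries 1 to 4. Its log2 fold change was 0.71 ± 0.084 (edgeR adjusted p = 0.000263). Mrpl54, likewise without a bacterial counterpart, read 36.8, 31.6, 33.7 and 25.8 CPM in WT libraries 1 to 4 and 51.4, 63.96, 45.4 and 43.5 CPM in TAZG197V libraries 1 to 4, a log2 fold change of 0.69 ± 0.116 (edgeR adjusted p = 0.00242). In both genes the lowest TAZG197V library, number 4, lay above the highest WT library.

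Mrpl20, the counterpart of bacterial L20, an early-binding protein in bacterial assembly, read 31.1, 27.9, 35.5 and 22.2 CPM in WT libraries 1 to 4 and 46.7, 54.1, 48.5 and 37.7 CPM in TAZG197V libraries 1 to 4. Mrpl33, a short protein with a bacterial counterpart, read 36.9, 35.7, 34.8 and 26.1 CPM in WT libraries 1 to 4 and 48.03, 56.2, 50.2 and 41.1 CPM in TAZG197V libraries 1 to 4. Neither gene overlapped between genotypes, and their log2 fold changes were 0.68 ± 0.085 and 0.58 ± 0.072 (edgeR adjusted p = 0.00034 and 0.000324). Mrpl57 read 18.1, 15.99, 21.3 and 15.5 CPM in WT libraries 1 to 4 and 25.4, 30.5, 24.1 and 21.7 CPM in TAZG197V libraries 1 to 4, a log2 fold change of 0.50 ± 0.096 (edgeR adjusted p = 0.0032). Mrpl19 read 29.6, 26.02, 33.3 and 29.7 CPM in WT libraries 1 to 4 and 46.4, 50.3, 44.7 and 32.6 CPM in TAZG197V libraries 1 to 4. TAZG197V library 4 fell below the highest WT library, so the genotypes overlapped, at a log2 fold change of 0.50 ± 0.065 (edgeR adjusted p = 0.000411). The remaining 9 rises, in Mrpl13, Mrpl15, Mrpl17, Mrpl21, Mrpl27, Mrpl32, Mrpl35, Mrpl38 and Mrpl40, ranged from 0.22 (Mrpl35) to 0.46 (Mrpl15 and Mrpl40) on the log2 scale. Of these 9, Mrpl17, Mrpl27, Mrpl32, Mrpl35 and Mrpl38 each lost the call without some single library, with the highest edgeR adjusted p at 0.166, 0.11, 0.081, 0.14 and 0.0695, and without WT library 4 the log2 fold change of Mrpl27 went from 0.33 to 0.21.

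The 6 large-subunit genes that fell did so by less than the leading rises. Mrpl28 (chr17:26123500-26126613, plus strand), the counterpart of bacterial L28, read 92.3, 81.5, 103 and 78.3 CPM in WT libraries 1 to 4 and 66.2, 67.3, 71.5 and 69.7 CPM in TAZG197V libraries 1 to 4, and fell in every TAZG197V library below every WT library. Its log2 fold change was -0.38 ± 0.085 (edgeR adjusted p = 0.00778). Mrpl18, a protein of the central protuberance, read 65.3, 61.3, 67.9 and 49.7 CPM in WT libraries 1 to 4 and 46.6, 50.5, 50.3 and 46.1 CPM in TAZG197V libraries 1 to 4, a log2 fold change of -0.32 ± 0.078 (edgeR adjusted p = 0.011). Mrpl45, which anchors the large subunit to the inner membrane, read 67.6, 54.5, 72.00 and 61.5 CPM in WT libraries 1 to 4 and 51.7, 56.7, 54.1 and 47.1 CPM in TAZG197V libraries 1 to 4, a log2 fold change of -0.32 ± 0.060 (edgeR adjusted p = 0.00309). In Mrpl18 and Mrpl45 1 or more TAZG197V libraries lay above the lowest WT library, and without TAZG197V library 4 Mrpl45 was no longer called (edgeR adjusted p = 0.0859).

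Mrpl50 read 70.2, 60.6, 70.6 and 67.6 CPM in WT libraries 1 to 4 and 57.2, 56.7, 56.5 and 55.5 CPM in TAZG197V libraries 1 to 4, without overlap (log2 fold change -0.27 ± 0.054, edgeR adjusted p = 0.00405). Mrpl49 read 37.5, 34.2, 38.02 and 33.4 CPM in WT libraries 1 to 4 and 28.96, 32.4, 29.7 and 28.2 CPM in TAZG197V libraries 1 to 4, again without overlap (log2 fold change -0.27 ± 0.064, edgeR adjusted p = 0.00951). Mrpl42, the member with the highest level per length, read 167, 141, 174 and 149 CPM in WT libraries 1 to 4 and 139, 138, 141 and 134 CPM in TAZG197V libraries 1 to 4. Its TAZG197V libraries all lay below 3 of the 4 WT libraries, and WT library 2 fell among them. The log2 fold change of Mrpl42 was -0.21 ± 0.064 (edgeR adjusted p = 0.0284), and the call was lost without any 1 of 6 libraries (edgeR adjusted p = 0.0525 to 0.0972), WT libraries 1, 3 and 4 and TAZG197V libraries 1, 2 and 4.

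In the small subunit, 12 of 29 Mrps genes were called higher and 2 lower (8 and 3 under upper quartile scaling, 16 and 0 under library totals), with a median log2 fold change of 0.19 and a range of -0.32 to 0.76. The shares called higher and lower were 41.4% and 6.9%, beside 22.5% and 18.1% of all genes with a mean count of 50. Only 6 were called without surrogate variables, all higher, beside 33.9% of such genes in either direction. Calls numbered 7 with lane in place of the surrogate variables, 9 without WT library 1, WT library 2 or TAZG197V library 1, and 8 without TAZG197V library 2. The genotypes did not overlap in 5 of the 29 (17.2%), all higher, beside 36.7% of all genes with a mean count of 50. Mrps18b (chr17:35910379-35916389, minus strand), 1 of 3 paralogues related to bacterial S18, read 12.8, 9.70, 11.9 and 10.8 CPM in WT libraries 1 to 4 and 19.7, 21.05, 21.3 and 16.3 CPM in TAZG197V libraries 1 to 4. It had the largest log2 fold change of all members, 0.76 ± 0.078 (edgeR adjusted p = 0.000115), with no overlap between genotypes. Its paralogue Mrps18a read 52.6, 45.4, 54.9 and 37.9 CPM in WT libraries 1 to 4 and 57.7, 59.02, 56.9 and 51.1 CPM in TAZG197V libraries 1 to 4, a log2 fold change of 0.25 ± 0.085 (edgeR adjusted p = 0.0472). The Mrps18a genotypes overlapped, and the call was lost without any 1 library other than WT library 3 (edgeR adjusted p = 0.0654 to 0.129), with a log2 fold change of 0.16 without WT library 4. The third paralogue, Mrps18c, read 12.7, 11.9, 12.2 and 9.24 CPM in WT libraries 1 to 4 and 13.4, 14.2, 13.04 and 12.4 CPM in TAZG197V libraries 1 to 4, a log2 fold change of 0.23 that was not called (edgeR adjusted p = 0.0695).

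Mrps10, the counterpart of bacterial S10 in the head of the subunit, read 14.4, 12.9, 13.05 and 9.87 CPM in WT libraries 1 to 4 and 19.4, 20.8, 19.8 and 16.9 CPM in TAZG197V libraries 1 to 4, with no overlap and a log2 fold change of 0.64 ± 0.086 (edgeR adjusted p = 0.000525). Mrps17, which binds the small-subunit rRNA, read 42.5, 38.3, 42.8 and 41.6 CPM in WT libraries 1 to 4 and 56.1, 55.1, 57.1 and 48.6 CPM in TAZG197V libraries 1 to 4. Mrps6 read 15.7, 15.7, 15.5 and 15.8 CPM in WT libraries 1 to 4 and 21.04, 23.2, 18.3 and 19.1 CPM in TAZG197V libraries 1 to 4. Both were without overlap, at log2 fold changes of 0.37 ± 0.053 and 0.38 ± 0.087 (edgeR adjusted p = 0.000666 and 0.00827).

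Mrps30, which despite its symbol is placed in the large subunit in ribosome structures, read 29.5, 27.8, 29.6 and 27.1 CPM in WT libraries 1 to 4 and 41.4, 40.1, 35.7 and 32.1 CPM in TAZG197V libraries 1 to 4. It rose without overlap, by 0.38 ± 0.069 on the log2 scale (edgeR adjusted p = 0.00255). Mrps23, the Mrps gene with the highest level per length, read 136, 121, 154 and 119 CPM in WT libraries 1 to 4 and 171, 179, 170.1 and 143 CPM in TAZG197V libraries 1 to 4. Mrps16 read 37.9, 34.1, 39.1 and 29.8 CPM in WT libraries 1 to 4 and 41.9, 46.3, 44.5 and 38.5 CPM in TAZG197V libraries 1 to 4. In Mrps23 and Mrps16 the lowest TAZG197V library, number 4, fell within the WT range, and the log2 fold changes were 0.31 ± 0.061 and 0.28 ± 0.069 (edgeR adjusted p = 0.00385 and 0.0112). Mrps16 lost its call without TAZG197V library 2 (edgeR adjusted p = 0.0538). Mrps27 and Mrps28 rose by 0.22 and 0.27 (edgeR adjusted p = 0.0223 and 0.0429) with overlapping genotypes, and both lost the call without TAZG197V library 2 or any of several others (highest edgeR adjusted p = 0.107 and 0.157). Without WT library 4 the log2 fold change of Mrps28 was 0.16. Counting Mrps18a and Mrps30 with the large subunit, and leaving out Mrps36, gave 25 large-subunit and 12 small-subunit genes called.

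Mrps34, a mitochondria-specific protein of the small subunit, read 11.3, 8.85, 12.4 and 9.06 CPM in WT libraries 1 to 4 and 12.6, 16.7, 14.1 and 12.1 CPM in TAZG197V libraries 1 to 4. Its log2 fold change was 0.39 ± 0.11 (edgeR adjusted p = 0.0215) with overlapping genotypes, 77.8% of its exon bases are shared with Mapk8ip3 and Nme3, and the call was lost without WT library 1, WT library 2 or TAZG197V library 2 (edgeR adjusted p = 0.0533 to 0.11). The 2 Mrps genes that fell both overlapped. Mrps35 read 83.8, 72.7, 77.6 and 69.6 CPM in WT libraries 1 to 4 and 65.2, 72.6, 63.1 and 60.3 CPM in TAZG197V libraries 1 to 4, a log2 fold change of -0.22 ± 0.069 (edgeR adjusted p = 0.0324). Mrps25, with 69.8% of its exon bases inside Nr2c2, read 31.4, 28.2, 35.8 and 29.6 CPM in WT libraries 1 to 4 and 28.5, 29.4, 26.3 and 24.9 CPM in TAZG197V libraries 1 to 4, a log2 fold change of -0.22 ± 0.070 (edgeR adjusted p = 0.0365). Mrps35 lost its call without any 1 of 5 libraries and Mrps25 without any 1 of 6 (edgeR adjusted p = 0.0615 to 0.0901 and 0.0508 to 0.176).

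Mrps36, now known as a subunit of the oxoglutarate dehydrogenase complex rather than of the ribosome, read 7.88, 7.34, 7.81 and 6.38 CPM in WT libraries 1 to 4 and 4.83, 5.94, 6.58 and 6.01 CPM in TAZG197V libraries 1 to 4, a log2 fold change of -0.32 ± 0.131 that was not called (edgeR adjusted p = 0.0811). Among genes whose human counterparts are linked to cardiomyopathy, Mrps22 read 23.2, 18.1, 22.2 and 18.9 CPM in WT libraries 1 to 4 and 24.8, 29.5, 26.2 and 21.3 CPM in TAZG197V libraries 1 to 4. It was called higher, at a log2 fold change of 0.28 ± 0.078 (edgeR adjusted p = 0.0201), with overlapping genotypes, and the call was lost without WT library 2 or TAZG197V library 2 (edgeR adjusted p = 0.0501 and 0.105). Mrpl3, Mrpl44 and Mrps14 were not called, and their log2 fold changes had 95% confidence intervals of -0.11 to 0.20, -0.17 to 0.15 and -0.11 to 0.21. Nor was Mrpl12, the stalk protein that contacts the translation factors, at -0.08 to 0.29, or Mrps5 at -0.04 to 0.27.

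**Figure D2:**
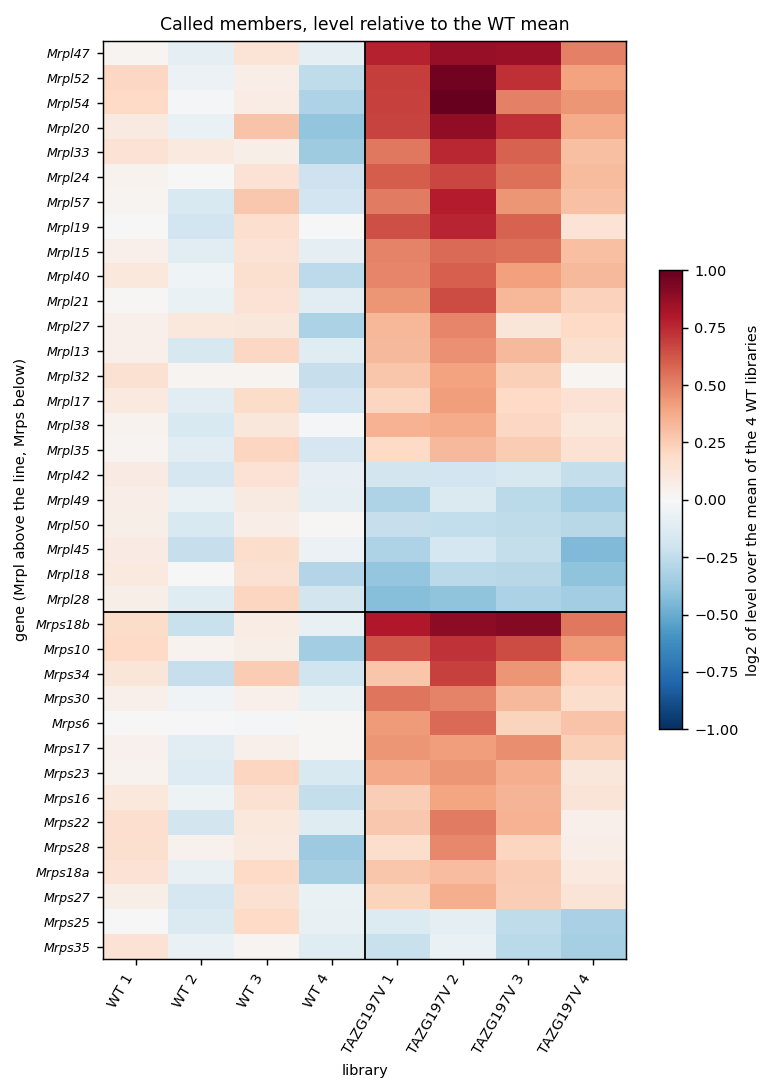
Level of the 37 called members in each of the 8 libraries, as log2 of the level over the mean of the 4 WT libraries, with 23 Mrpl genes above the line and 14 Mrps genes below it, ordered by fold change. TAZG197V library 4 is paler than the other TAZG197V libraries in most of the 29 genes called higher.

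Members were also counted by whether their protein has a bacterial counterpart, with the subunit taken from the symbol, so that Mrps30 and Mrps36 stand among the Mrps genes without one. Of 29 Mrpl genes with a counterpart, 12 were called higher and 2 lower, with a median log2 fold change of 0.14, and of 19 tested without one, 5 were higher and 4 lower, with a median of -0.01. Of 18 Mrps genes with a counterpart, 7 were higher and 0 lower, with a median of 0.21, and of 11 without one, 5 were higher and 2 lower, with a median of 0.19. The difference between these classes was not tested.

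The members moved together from library to library within a genotype. TAZG197V library 4 had the lowest TAZG197V level in 67 of 77 members and TAZG197V library 2 the highest in 61. WT library 4 was lowest among WT in 51 members and WT library 3 highest in 54. The same libraries were lowest in the summed level of 85 nuclear OXPHOS (respiratory chain and ATP synthase) subunit genes, at 38870 CPM in WT library 4 and 38140 CPM in TAZG197V library 4, and held the brain markers and, in WT library 4, the haemoglobin counts given above, whose part in this was not tested.

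Summed over the 49 Mrpl genes, levels were 2458, 2166, 2581 and 2099 CPM in WT libraries 1 to 4 and 2473, 2680, 2490 and 2244 CPM in TAZG197V libraries 1 to 4. The 29 Mrps genes summed to 1125, 994.2, 1180 and 942.8 CPM in WT and to 1179, 1278, 1185 and 1058 CPM in TAZG197V. The genotypes overlapped in both sums, at 2326 ± 231 and 2472 ± 178 CPM (SD, n = 4) for Mrpl and 1061 ± 111 and 1175 ± 89.9 CPM for Mrps. The ratio of the sums was far less variable. Mrpl over Mrps was 2.185, 2.179, 2.187 and 2.226 in WT and 2.098, 2.097, 2.101 and 2.121 in TAZG197V, so that every TAZG197V library lay below every WT library. This ratio, 2.194 ± 0.0217 in WT and 2.104 ± 0.0113 in TAZG197V, is one of RNA levels per gene and not of subunits, and being a score over the members it carries no test.

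Against the nuclear OXPHOS subunit genes, whose proteins assemble with those made on the mitochondrial ribosome, the joint Mrpl and Mrps sum amounted to 7.79%, 7.97%, 8.27% and 7.83% in WT libraries 1 to 4. In TAZG197V libraries 1 to 4 it amounted to 9.15%, 9.35%, 8.97% and 8.66%, so here too the genotypes did not overlap. Of the 82 OXPHOS genes tested, 6 were called higher and 22 lower, with a median log2 fold change of -0.08. This percentage was chosen after its parts were seen and carries no test.

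**Figure D3:**
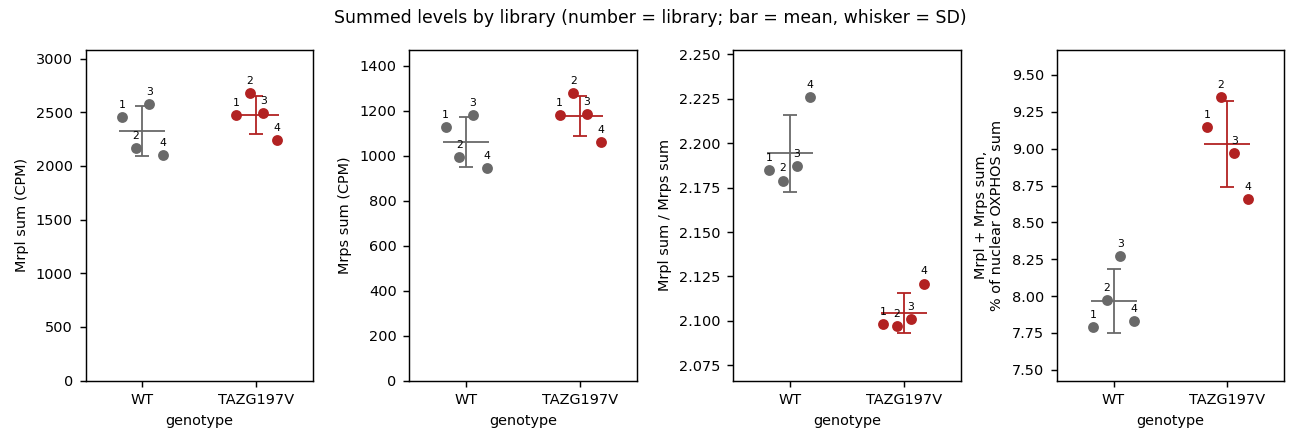
From left to right, summed Mrpl level, summed Mrps level (CPM, axes from 0), their ratio, and their joint sum as a percentage of the summed nuclear OXPHOS level (axes not from 0), with 1 point per library, the mean and the SD (n = 4). The sums overlap between genotypes, whereas the ratio is 2.179 to 2.226 in WT and 2.097 to 2.121 in TAZG197V and the percentage 7.79 to 8.27 and 8.66 to 9.35.

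Levels were compared between genes only per length, as CPM per kilobase of the principal transcript. Over all libraries the mean was highest for Mrpl42 (222), Mrpl30 (126) and Mrpl12 (110.3) in the large subunit and for Mrps23 (112), Mrps21 (89.3) and Mrps18a (58.7) in the small. It was lowest for Mrpl48 (7.25), Mrpl17 (5.67) and Mrpl23 (2.80), and for Mrps33 (6.49), Mrps5 (6.30) and Mrps25 (4.82). The median was 29.2 for Mrpl and 17.0 for Mrps genes. Within a genotype the libraries of Mrpl30 (105.5 to 139 in WT) and Mrpl12 (91.9 to 125.9) overlapped, so their order does not exceed their spread, whereas Mrpl42 (211 to 261.6) stood clear of both. Those of Mrps23 (89.16 to 115.4) and Mrps21 (85.54 to 106.5) overlapped in WT, though not in TAZG197V. In WT Mrps33 (4.92 to 7.12), Mrps5 (5.21 to 6.72) and Mrps25 (4.65 to 5.90) overlapped too. In TAZG197V Mrps25 (4.11 to 4.84) lay below both Mrps33 and Mrps5, which overlapped. The order rests on the transcript chosen: over the union of annotated exons Mrpl42 ranked 8 of 48 and Mrpl30 10, with Mrpl12 at the top, and Mrps18a ranked 9 of 29 and Mrps25 26, with Mrps23 still at the top. Spearman's rho between level per length and log2 fold change across genes, which are not independent replicates, was -0.232 for 48 Mrpl and -0.00296 for 29 Mrps genes.

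Promoters are shown for the gene with the largest called rise of each subunit and the largest called Mrpl fall, as the 250 bases before and 50 bases after the RefSeq start (GRCm38.p6, gene strand, 5′ to 3′). Capitals mark motif matches: GCGCATGC (NRF1, a regulator of nuclear genes for mitochondrial proteins) or its reverse complement, and GGGCGGG (GC box) or its reverse complement. Mrps18b, chr17:35916391-35916690, minus strand, held an NRF1 match at -223 and at 29 and a GC box at -64. The windows of Mrpl47, chr3:32736706-32737005, minus strand, and Mrpl28, chr17:26123253-26123552, plus strand, held none of the 8 motifs searched and stand in lower case. Mrps35, the Mrps gene called lower with the larger fall, had no entry. Annotated exons of other genes cover 24.2% of the exon bases of Mrpl47 (Actl6a and Ndufb5) and 30.5% of those of Mrps18b (Gm16279). Among other members called higher, the share was 77.8% in Mrps34 as given above, 36% in Mrpl19 (Gcfc2) and 26.3% in Mrpl24 (Rrnad1). It was 24.2% in Mrps27 (6430562O15Rik) and 19.9% in Mrps6 (Gm49711 and Slc5a3). As strand handling is not given, reads there cannot be assigned to a gene with certainty. In Mrpl27, 26.9% of the 50-base windows of its transcripts also occur in other genes.
Mrps18b: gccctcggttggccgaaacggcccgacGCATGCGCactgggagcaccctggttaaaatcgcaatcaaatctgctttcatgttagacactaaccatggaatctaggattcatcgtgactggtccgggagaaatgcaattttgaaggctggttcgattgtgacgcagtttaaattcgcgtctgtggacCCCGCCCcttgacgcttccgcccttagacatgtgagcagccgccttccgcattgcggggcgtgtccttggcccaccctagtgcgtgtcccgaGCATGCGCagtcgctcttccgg
Mrpl47: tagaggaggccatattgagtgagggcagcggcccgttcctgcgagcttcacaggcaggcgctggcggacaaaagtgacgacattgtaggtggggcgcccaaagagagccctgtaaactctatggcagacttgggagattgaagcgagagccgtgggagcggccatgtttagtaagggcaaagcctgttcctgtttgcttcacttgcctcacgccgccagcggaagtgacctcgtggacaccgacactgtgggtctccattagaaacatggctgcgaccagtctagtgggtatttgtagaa
Mrpl28: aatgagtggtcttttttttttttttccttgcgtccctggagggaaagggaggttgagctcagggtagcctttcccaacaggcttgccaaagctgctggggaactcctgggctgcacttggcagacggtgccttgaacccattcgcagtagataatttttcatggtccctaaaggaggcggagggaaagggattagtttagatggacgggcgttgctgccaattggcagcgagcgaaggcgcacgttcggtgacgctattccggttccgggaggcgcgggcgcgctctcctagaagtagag

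Over the 69 members with a promoter entry, some motifs were more common than in promoters at large, whether or not the gene was called; the difference was not tested. AAGATGGCG (YY1, which binds many promoters at the transcription start) was found in 11.6% of members, 3.29% of the 11116 tested genes with an entry and 1.64% of all 27025 genes with one. The shares for NRF1 were 11.6%, 5.63% and 3.05%, and for CCGGAAGT (ETS factors, among them GABP) 17.4%, 8.52% and 4.31%. GGGCGGG was in 42.0% of members and 50.1% of tested genes, CACGTG (E-box) in 7.25% and 11.5%, and TGACGTCA (CRE) in 2.9% and 3.44%. TGATGNAAT (C/EBP-ATF) and TCAAGGTCA (ERR) were in 0 of 69 members, and in 0.522% and 0.351% of tested genes. Both strands were searched, no motif contains another, and NRF1 matches on opposite strands can overlap since it and its reverse complement share the letters GCATGC. These are matches of letters, not binding sites.
The 8 YY1 matches, shown because 6 of them stand on the gene strand just after the start, at 12 to 37, were, with 10 bases on either side where the window holds them:
Mrpl35: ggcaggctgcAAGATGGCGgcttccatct
Mrpl36: cgtgaccttaCGCCATCTTtcttcctggc
Mrpl37: tgcacgggcaAAGATGGCGgcgtccaggt
Mrpl42: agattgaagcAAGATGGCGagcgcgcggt
Mrps11: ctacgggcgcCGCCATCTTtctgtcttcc
Mrps18a: ggtgcgttccAAGATGGCGgccctcaggg
Mrps24: gcgccggcccAAGATGGCGtggtc
Mrps27: ggtgcgctccAAGATGGCGgctcccatgg
1 NRF1 match of each of the 8 genes that hold one, on either strand and shown for comparison with Mrps18b, was:
Mrpl9: gcgcagctgcGCATGCGCggggtccttc
Mrpl10: ccagctccacGCATGCGCatagcggccc
Mrpl17: ccgagttactGCGCATGCgtcctctgag
Mrpl22: gcctcggactGCGCATGCgtatagtcag
Mrpl32: tgacccttgcGCATGCGCaagaggggcc
Mrpl33: accggaacccGCGCATGCcccggaagta
Mrpl39: ggagaggcgcGCATGCGCccccgcgtgg
Mrps18b: acggcccgacGCATGCGCactgggagca

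By call, YY1 was in 3 of 22 members called higher, 1 of 7 lower and 4 of 39 not called, and NRF1 in 4 of 22, 0 of 7 and 4 of 39. ETS was in 5 of 22, 1 of 7 and 6 of 39. The difference between these classes was not tested.

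Many members start close to a gene that runs the other way, by the outermost starts in GENCODE, which can differ from the RefSeq starts of the promoters above. The RefSeq window of Mrpl47 lies inside its GENCODE gene. For 33 of 78 members a protein-coding gene on the opposite strand starts within 1000 bases, on either side of the member's start. Some of these pairs therefore overlap, as Mrpl18 and Tcp1 do. In 30 pairs both genes were tested, Mrpl46 and Mrps11 being each other's neighbour with neither called. Of the 10 neighbours of members called higher, 2 were also higher, Mtbp beside Mrpl13 and Psma2, a proteasome subunit, beside Mrpl32, and the other 8 were not called. Mrpl47 stands 615 bases from Ndufb5, a complex I subunit at a log2 fold change of -0.13 (edgeR adjusted p = 0.18), and Mrpl54 stands 26 bases from Apba3, at -0.07 (edgeR adjusted p = 0.564). Mrps18b stands 45 bases from Ppp1r10, at 0.24 (edgeR adjusted p = 0.259).

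Of the 3 neighbours of members called lower, 2 were called higher. Fau, which encodes a cytosolic ribosomal protein, starts 59 bases from Mrpl49 and rose by 0.84 on the log2 scale (edgeR adjusted p = 0.0047) where Mrpl49 fell by 0.27. Tcp1, a subunit of the cytosolic chaperonin, starts 644 bases from Mrpl18 and rose by 0.47 (edgeR adjusted p = 0.000253) where Mrpl18 fell by 0.32. Exons of Tcp1 cover 10.1% of the exon bases of Mrpl18, where reads cannot be assigned with certainty. Of the 17 neighbours of members not called, 3 were higher, 2 lower and 12 not called. Across all genes tested, 18.4% were called higher and 14.8% lower.

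**Figure D4:**
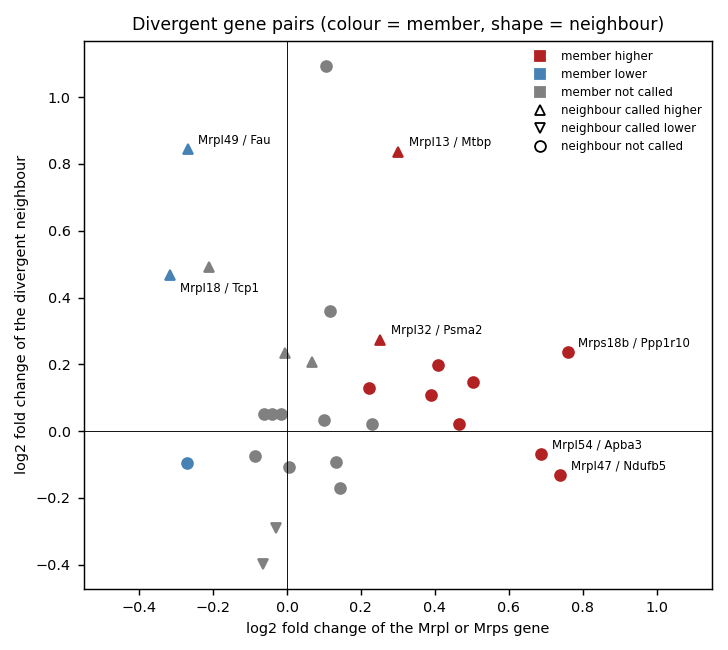
Log2 fold change of each member against that of its divergent neighbour, with colour for the member's call and shape for the neighbour's, and Mrpl46 and Mrps11 drawn once. The blue triangles at upper left are Mrpl49 with Fau and Mrpl18 with Tcp1, in which the neighbours were called in opposite directions.

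Other genes of mitochondrial translation were described beside the members. Of the 5 ribosomal proteins without the Mrp prefix, Chchd1 and Aurkaip1 were called higher, at log2 fold changes of 0.29 ± 0.080 and 0.22 ± 0.066 (edgeR adjusted p = 0.0191 and 0.0252). Neither was called without surrogate variables. Gadd45gip1 was at 0.18 ± 0.084, Dap3, a GTP-binding protein of the small subunit, at 0.01 ± 0.065, and Ptcd3 at -0.07 ± 0.061, and these 3 were not called. Of 23 assembly factors, 6 were higher and 3 lower, with a median of 0.09. The largest were Mtg1, a GTPase of large-subunit assembly, at 0.58 ± 0.066 (edgeR adjusted p = 0.000215), Mpv17l2 at 0.52 ± 0.098 (edgeR adjusted p = 0.00323) and Mettl15, an rRNA methyltransferase, at 0.42 ± 0.084 (edgeR adjusted p = 0.00418). None of these 3 overlapped between genotypes. The 3 called lower, also without overlap, were Mrm2, an rRNA methyltransferase, at -0.38 ± 0.11, Rpusd4, a pseudouridine synthase, at -0.36 ± 0.069 and Mettl17 at -0.28 ± 0.075 (edgeR adjusted p = 0.0274, 0.00323 and 0.0167).

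Of 15 translation factors and related genes, 1 was higher and 3 were lower, with a median of -0.08. Tufm, the mitochondrial elongation factor Tu, read 22.7, 20.1, 22.6 and 19.6 CPM in WT libraries 1 to 4 and 15.3, 16.2, 16.2 and 17.97 CPM in TAZG197V libraries 1 to 4, all below WT, at a log2 fold change of -0.37 ± 0.085 (edgeR adjusted p = 0.00822). Mtif2, an initiation factor, was at -0.29 ± 0.060 (edgeR adjusted p = 0.00474) and Mtrf1, a release factor, at 0.33 ± 0.103 (edgeR adjusted p = 0.0325). The large-subunit rRNA mt-Rnr2 read 6842, 5641, 7769 and 7093 CPM in WT libraries 1 to 4 and 4389.9, 3735, 5576 and 6541 CPM in TAZG197V libraries 1 to 4. It was called lower at -0.48 ± 0.155 (edgeR adjusted p = 0.0417) with overlapping genotypes, and the small-subunit rRNA mt-Rnr1, at 0.07 ± 0.177, was not called. Without surrogate variables neither rRNA was called.

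Values for the cytosolic ribosome are given for comparison. Of its 80 protein genes tested, 64 were called higher and 1 lower, with a median log2 fold change of 0.70, and the summed level was 3359 to 3771 CPM in WT and 5150 to 6216 CPM in TAZG197V. Many of these genes have near-identical processed copies in the genome, so their counts are uncertain. The medians beside it were 0.10 for Mrpl and 0.19 for Mrps genes. The difference between the lists was not tested.

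**Figure D5:**
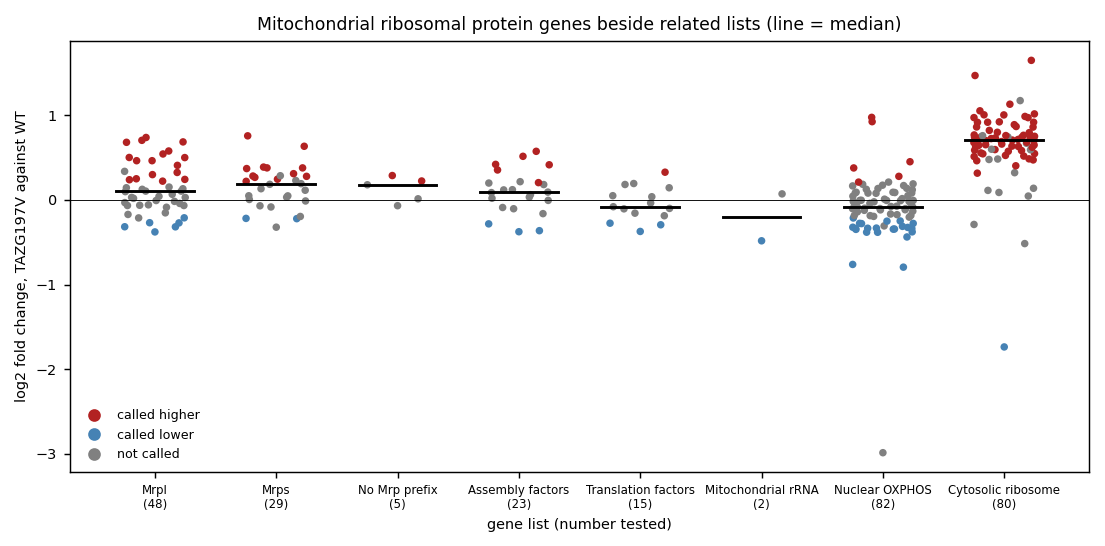
Log2 fold change of each tested gene of the Mrpl and Mrps sets and of 6 related lists, with the list median as a line and colour for the call. The medians run from -0.21 for the 2 mitochondrial rRNAs to 0.70 for the 80 cytosolic ribosomal protein genes.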

How the data were processed

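Heart RNA of 4 WT and 4 TAZG197V samples was profiled by single-end RNA sequencing with reads of 50 bases. According to the submitters' processing notes and the study's methods, the authors used bcl2fastq 2.20.0, FastQC 0.11.9, STAR 2.7.3a on mm10 with at most 2 mismatches, and featureCounts (Subread 2.0.0) over exons. The annotation release and the handling of strand and of reads with several matches are not given in the sources used here. The deposited values are raw counts per gene. The 92 spike-in rows held 0 counts and were left out. Symbols came from GENCODE M21 (55230 of 55471 rows matched).

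Counts were fitted with edgeR 4.0.16 in R 4.3.3: filtering by genotype, TMM scaling, 2 surrogate variables (sva 3.50.0) and the robust quasi-likelihood F-test with Benjamini-Hochberg adjustment over 15084 genes. Levels are TMM-scaled CPM. Named genes were Taz, up to 8 called members per subunit and direction by fold change, the 3 highest and lowest levels per length, members with over 50% shared sequence, the Mrps18 family, Mrps36 and members with disease links or textbook roles. Shared sequence was measured in transcripts, with windows of 50 bases. Members and lists were chosen with earlier results of these data known. Alternatives were DESeq2 1.42.0, other scalings, covariates, filters and call limits, and left-out libraries. The fitting was tested on simulated data. No library repeated another within a genotype (chi-square per gene of at least 10.2).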

Additional observations from a re-analysis of the deposited data

Results flagged for a closer look

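In 5 of the 162 sets of 4 libraries examined, the highest or lowest library stood apart from the others by more of the range than Dixon's 95% critical value, where chance alone gives about 1 set in 20, or 8.1. Mrpl23 read 1.29 CPM in WT library 1 against 1.83 to 1.87 CPM in the other WT libraries (gap over range 0.926). Mrpl27 read 12.2 CPM in WT library 4 against 15.8 to 16.5 CPM (0.842), and Mrps33 read 5.45 CPM there against 7.53 to 7.88 CPM (0.855). The ratio of summed Mrpl to Mrps levels was highest in library 4 of both genotypes, at 2.226 against 2.179 to 2.187 in WT (0.83) and at 2.121 against 2.097 to 2.101 in TAZG197V (0.833).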

How the results depend on the processing

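Across 19 alternative fits per gene, all 37 called members kept their sign, and 22 had an adjusted p under 0.05 in every fit. These 22 were 12 large-subunit and 6 small-subunit genes called higher and 4 large-subunit genes called lower. The fold limit of a call was not applied in this count. Mrpl49, among the 4 lower, fell short of that limit at its smallest log2 fold change, -0.197. Of the small-subunit calls, 14 became 6 without surrogate variables and 7 with lane in their place. Leaving out 1 library gave 8 to 14 small-subunit calls (9 without WT 1, WT 2 or TAZG197V 1, and 8 without TAZG197V 2), 17 to 24 large-subunit calls and 3729 to 4797 genes. At a fold of at least 1.5, 4 Mrpl, 2 Mrps and 1777 genes were called. With the replicate number as a block, 17 Mrpl, 7 Mrps and 4316 genes were called. Deviations of same-numbered libraries correlated at 0.277, 0.0436, 0.28 and 0.416, and other pairs at -0.464 to 0.317. Whether the numbers mark pairs was not tested. They were not taken to pair the samples because no label says that they do.

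Scaling moved the split of calls. TMM gave 2782 genes called higher and 2232 genes called lower, upper quartile scaling 2317 and 2655, and library totals alone 3514 and 1587, with the all genes median log2 fold change turning to 0.0607 under the last. The medians of the members remained above 0 under every scaling tried, at 0.05 to 0.17 for Mrpl and 0.13 to 0.25 for Mrps. The cause of these shifts was not tested. Mrpl53 and Mrpl23 had the fewest counts of the members.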
